A study of Bos taurus with 35 samples.

Results

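The set described here is the nuclear-encoded respiratory chain genes of the study, 44 of the 27607 genes in the count table. They were selected on measured expression: their symbols start with NDUFA, NDUFB, NDUFC, NDUFS, NDUFV, UQCR, ATP5 or COX and a digit, or name a subunit of succinate dehydrogenase or cytochrome c1 and stand in the study's list of genes differentially expressed (DE) at some time *post-mortem*. They were thus chosen by the contrasts of each later time point against 0 h. Values and calls from these contrasts are given below as a description and are not used as tests. Of the 44 genes, 35 encode subunits of complexes I to V and 9 do not, although their symbols fit the same pattern. The copy of the list used here was shortened, and the rows it lacks belong to genes downregulated at 72 h, so respiratory chain genes that fell may be missing from the set and from every count of rising against falling members below. The 9 others are the ATP synthase inhibitor ATP5IF1, the complex I assembly factors NDUFAF2, NDUFAF6, NDUFAF7 and NDUFAF8, and the complex IV assembly proteins COX14, COX15, COX17 and COX18.

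To follow gene expression in muscle as it turns into meat, RNA-Seq was performed on cores of *longissimus thoracis* (*LT*), the long muscle of the back, from the left sides of 7 crossbred beef heifers weighing 525 to 635 kg at slaughter. Every carcass was sampled 5 times while it hung in a drip cooler, first at 45 min after death (0 h) and last at 72 h, with samples at 6, 24 and 48 h between them, which gave 35 libraries. No animal received a treatment, so the time points differ in time and, with it, in everything that time in the cooler brings. Animals are the replicates (n = 7 at each time point), and the same animals were measured throughout.

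The respiratory chain sits in the inner mitochondrial membrane. Complexes I and II pass electrons from NADH and succinate to ubiquinone, complex III hands them to cytochrome c, complex IV to oxygen, and complex V uses the proton gradient to make ATP. Most subunits are encoded in the nucleus and imported, a small number are encoded by mitochondrial DNA, and assembly factors help to build each complex without remaining in it. After death blood flow is lost and muscle oxygenation decreases, while RNA of the tissue can still be measured. Oxygen and respiration were not measured here.

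Total counts ranged from 20568418 to 104275821 per library (median 40133660), and the 44 genes had between 29 and 47317 counts in a library (median 4918.5). The lowest count was of COX18 and the highest of COX5B. All 44 genes passed the low count filter, which kept 14630 genes. CPM is a gene's count per 1000000 counts of its library after TMM normalisation, the log2 fold change is edgeR's estimate of later over earlier with its standard error (SE), and FDR is the Benjamini-Hochberg adjusted p of edgeR's quasi-likelihood test over the 14630 genes. DE calls required an FDR under 0.05 together with a change of more than 1.5-fold, which is 0.585 on the log2 scale. CPM values are relative to the other RNA of a library, and in bulk muscle fewer cells of a type cannot be told apart from less RNA per cell. The muscle identity of the tissue was checked with CKM, MYLPF and TNNC2, the 3 of 7 muscle marker genes that could be named. Their summed CPM had a median of 27600 at 0 h and 45100 at 72 h. A marker could be named only if the study had listed it as DE, so this rise does not speak for muscle markers in general.

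Of the 35 subunit genes, 34 were higher at 72 h than at 0 h and called upregulated, while 1, NDUFS1, was called downregulated. Counting all 44 genes, 39 were upregulated and 5 downregulated at 72 h, where 9.8% and 15.4% of all genes tested were called higher and lower. The 39 became 19 with libraries scaled by their totals, and 23 higher and 2 lower when tested against the fold change of 1.5 itself (glmTreat). The 5 that fell were NDUFS1, NDUFAF6, NDUFAF7, COX15 and COX18. Because the list was drawn from this contrast, nothing is read from these counts themselves. The median log2 fold change at 72 h of the 34 subunit genes was 0.72, from 0.59 to 1.09, a range whose lower end is set by the threshold that chose them. The median of all genes called upregulated at 72 h was 0.76, and that of all genes tested was 0.01.

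Before 72 h few of these genes were DE. At 6 h and 24 h 0 of the 44 were called by edgeR's quasi-likelihood test, DESeq2 or limma voom, although 11 and 34 had an unadjusted p below 0.05, as did 2127 and 3370 of the 14630 genes tested. Of all genes, 0.349% and 0.725% were called higher and 0.185% and 0.95% lower at these times. At 48 h 4 were called upregulated, namely NDUFA3, NDUFAF8, ATP5ME and COX8B, and 0 downregulated, against 2.96% and 6.3% of all genes. This count was unstable: it was 0 without animal 107 or animal 206, 7 without animal 104, and with libraries scaled by their totals 0 were called higher and 2 lower. At an FDR below 0.05 without the fold change threshold, 39 were higher and 5 lower at 48 h (21.9% and 23.5% of all genes). At 24 h the same criterion gave NDUFB4, SDHB, ATP5F1E and ATP5IF1 as higher and NDUFAF6 as lower (4.07% and 2.64% of all genes). ATP5ME at 48 h lay just inside the threshold, at 0.587, and the complex I core gene NDUFS8 just outside it, at 0.584. At 72 h the genes nearest to the threshold were SDHB and NDUFS7, at 0.592 and 0.593.

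**Figure D1:**
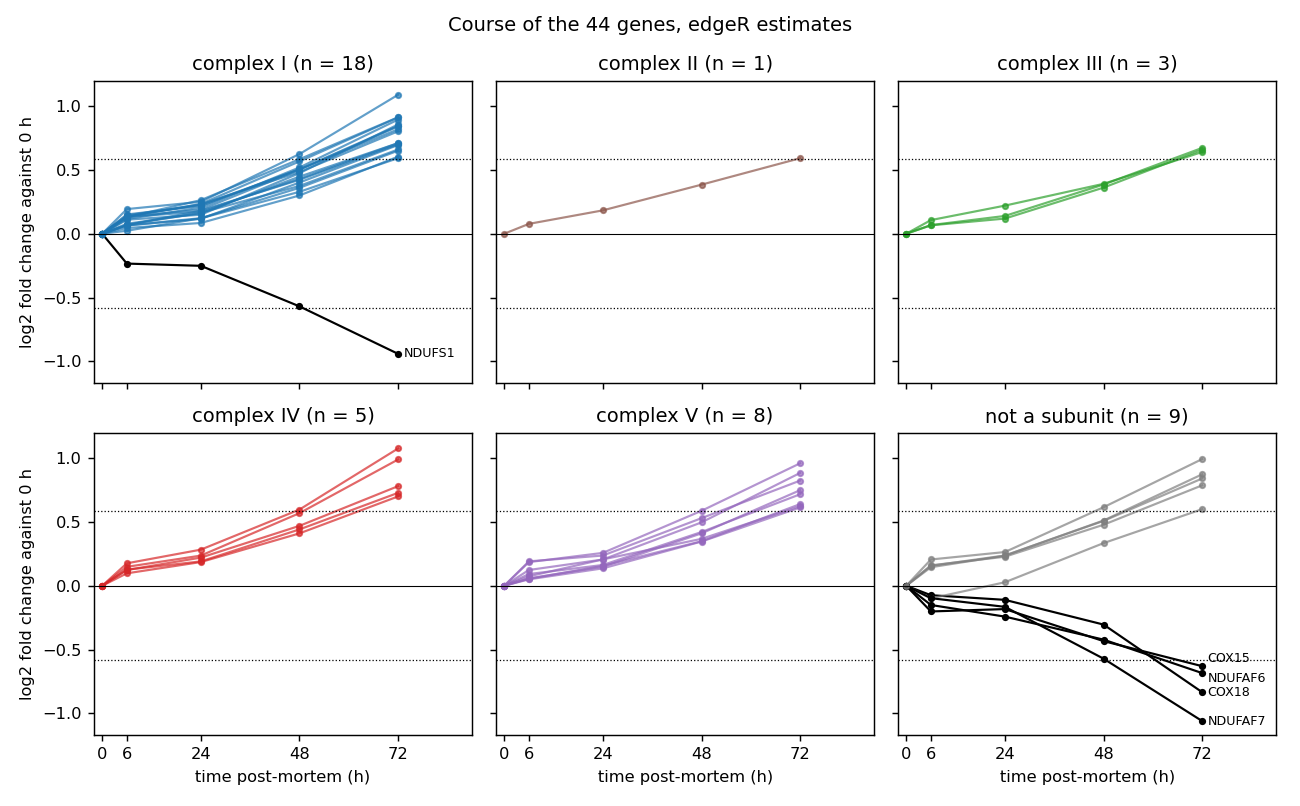
Estimated log2 fold change against 0 h (vertical axis) over time *post-mortem* in hours (horizontal axis), with 1 line per gene and 1 panel per complex; dotted lines mark a fold change of 1.5 in either direction. The 34 subunit genes drawn in colour rise together to between 0.59 and 1.09 at 72 h, while NDUFS1 and the 4 falling non-subunits, drawn in black, end between -1.06 and -0.63.

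In complex I, 17 of 18 named genes were upregulated at 72 h and their median log2 fold change was 0.80. Complex I carries electrons along a chain of iron-sulphur clusters held by core subunits, with accessory subunits arranged around them. The 14 accessory genes NDUFA2, NDUFA3, NDUFA6, NDUFA7, NDUFA8, NDUFA11, NDUFB1, NDUFB3, NDUFB4, NDUFB7, NDUFB8, NDUFB10, NDUFS5 and NDUFS6 had log2 fold changes from 0.60 (NDUFS6) to 1.09 (NDUFA3). The core genes NDUFS3, NDUFS7 and NDUFS8, whose products line the electron path to ubiquinone, were at 0.70, 0.59 and 0.91. The fourth core gene, NDUFS1, was at -0.94.

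NDUFA3, a small accessory subunit of the membrane arm, had the largest increase of all 44 genes. Its CPM ranged from 46.6 to 72.1 (median 57.2) at 0 h, 47.4 to 80.6 (median 65.8) at 6 h, 55 to 99.9 (median 65.1) at 24 h, 62.7 to 136 (median 86.3) at 48 h, and 82.5 to 170 (median 123) at 72 h. All 7 animals at 72 h were above all 7 at 0 h, animal 202 was lowest at 0, 6, 24, 48 and 72 h, and animal 206 was highest from 24 h on. The log2 fold change was 0.62 ± 0.084 (SE) at 48 h and 1.09 ± 0.085 at 72 h, a fold change of 2.13. It ranked 173rd in size among the 1434 genes called upregulated at 72 h.

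NDUFS7, a core subunit next to the ubiquinone site, had the smallest increase in complex I. The CPM of NDUFS7 ranged from 145 to 198 (median 186) at 0 h, 155 to 212 (median 170) at 6 h, 153 to 239 (median 189) at 24 h, 182 to 280 (median 206) at 48 h, and 226 to 311 (median 258) at 72 h. Its ranges at 0 h and 72 h did not overlap, although the rise was 1.51-fold (log2 0.59 ± 0.062). Up to 48 h its range still overlapped that of 0 h.

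NDUFS1, the large iron-sulphur core subunit that receives electrons near the NADH end of complex I, moved the opposite way. At 0 h its CPM ranged from 327 to 447 with a median of 377. It was 281 to 418 (median 316) at 6 h, 279 to 432 (median 318) at 24 h, 200 to 388 (median 231) at 48 h, and 138 to 370 (median 195) at 72 h. NDUFS1 was lower at 72 h than at 0 h in all 7 animals, by between 0.27 and 1.68 on the log2 scale. The ranges overlapped nonetheless, because animal 202 was highest at 72 h (370) while the other 6 animals lay at 230.2 or below. Estimated log2 fold changes were -0.57 ± 0.11 at 48 h and -0.94 ± 0.12 at 72 h, which is 0.521 of the 0 h level. Without animal 202 the value at 72 h was -1.07. On the RefSeq annotation (assembly ARS-UCD2.0) the span of NDUFS1 overlaps an uncharacterised locus, and 12 of the 44 genes overlap the span of another gene.

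Complex II was represented by SDHB alone, its iron-sulphur subunit, since SDHA, SDHC and SDHD were not on the copy of the list used here. SDHB had the smallest increase of all upregulated members and also the smallest SE. The CPM of SDHB ranged from 281 to 359 (median 309) at 0 h, 282 to 359 (median 332) at 6 h, 306 to 395 (median 353) at 24 h, 361 to 457 (median 407) at 48 h, and 436 to 512 (median 452) at 72 h. From 48 h on, every animal was above the highest animal at 0 h. On the log2 scale it had risen by 0.18 after 24 h and 0.38 after 48 h, and the final value was 0.59 ± 0.054.

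In complex III the accessory genes UQCRQ, UQCR10 and UQCR11 were upregulated, with log2 fold changes at 72 h between 0.64 and 0.67. UQCRQ, with the largest of the 3, had 89.5 to 118 CPM (median 104) at 0 h, 98.5 to 121 (median 105) at 6 h, 93.8 to 152 (median 111) at 24 h, 109 to 188 (median 129) at 48 h, and 132 to 209 (median 166) at 72 h. UQCR10, with the smallest, had 126 to 165 CPM (median 152) at 0 h, 141 to 176 (median 158) at 6 h, 138 to 225 (median 173) at 24 h, 173 to 248 (median 182) at 48 h, and 202 to 269 (median 236) at 72 h. Both were non-overlapping between 0 h and 72 h, UQCR10 already between 0 h and 48 h. Their log2 fold changes at 72 h, 0.67 ± 0.062 and 0.64 ± 0.069, differed by less than either SE.

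Complex IV had 5 upregulated genes, and the 3 muscle isoforms among them, COX8B, COX6A2 and COX7A1, were at 1.08, 0.99 and 0.78. These isoforms replace ubiquitous versions of the same subunits in heart and skeletal muscle. The ubiquitous isoforms were not analysed here, so no isoform ratio could be formed. The subunits COX6B1 and COX5B, which are not muscle isoforms, were at 0.73 and 0.70.

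COX8B had the largest change in the complex. Its CPM ranged from 132 to 184 (median 157) at 0 h, 141 to 209 (median 179) at 6 h, 147 to 268 (median 192) at 24 h, 164 to 345 (median 228) at 48 h, and 272 to 431 (median 322) at 72 h. Animal 104 was lowest at each of the 5 time points and animal 206 highest from 24 h on, and 72 h stood wholly above 0 h. The fold change was 1.51 at 48 h (log2 0.60 ± 0.091) and 2.11 at 72 h (log2 1.08 ± 0.092).

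The other muscle isoforms followed at lower folds. COX6A2 had 105 to 152 CPM (median 131) at 0 h, 125 to 163 (median 140) at 6 h, 120 to 200 (median 154) at 24 h, 159 to 268 (median 186) at 48 h, and 213 to 345 (median 247) at 72 h, with a log2 fold change of 0.99 ± 0.082. COX7A1 had 88.1 to 134 CPM (median 116) at 0 h, 110 to 138 (median 130) at 6 h, 102 to 182 (median 131) at 24 h, 125 to 239 (median 148) at 48 h, and 170 to 260 (median 194) at 72 h, with 0.78 ± 0.088. In both genes all animals at 72 h exceeded all animals at 0 h, and for COX6A2 this already held at 48 h. COX5B, with the smallest increase in complex IV, had 278 to 354 CPM (median 331) at 0 h, 306 to 394 (median 339) at 6 h, 302 to 452 (median 364) at 24 h, 352 to 525 (median 406) at 48 h, and 462 to 605 (median 502) at 72 h (log2 0.70 ± 0.061). Its 48 h range met that of 0 h by a small margin, and its 72 h range was separate.

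All 8 complex V genes on the list were upregulated at 72 h, with a median log2 fold change of 0.73. They belong to several parts of ATP synthase. The delta and epsilon subunits of the F1 part, ATP5F1D and ATP5F1E, were at 0.64 and 0.82. The c-ring gene ATP5MC1 was at 0.62 and the peripheral stalk gene ATP5PD at 0.61. The membrane subunits ATP5ME, ATP5MF, ATP5MPL and ATP5MD, which help ATP synthase to pair up in the cristae, were at 0.96, 0.88, 0.75 and 0.72.

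ATP5ME had the largest change in complex V. Its CPM ranged from 99 to 131 (median 110) at 0 h, 115 to 139 (median 123) at 6 h, 102 to 197 (median 132) at 24 h, 137 to 257 (median 157) at 48 h, and 176 to 273 (median 214) at 72 h. From 48 h on all animals exceeded the highest animal at 0 h, and animal 206 was above the others at 24, 48 and 72 h. Its log2 fold change was 0.59 ± 0.085 at 48 h and 0.96 ± 0.085 at 72 h. ATP5ME overlaps the span of MYL5 on the RefSeq annotation.

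ATP5PD had the smallest change, with 153 to 193 CPM (median 172) at 0 h, 169 to 203 (median 177) at 6 h, 165 to 255 (median 194) at 24 h, 195 to 283 (median 225) at 48 h, and 243 to 315 (median 258) at 72 h. The 48 h and 72 h ranges both lay above that of 0 h. The log2 fold change at 72 h was 0.61 ± 0.068.

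**Figure D2:**
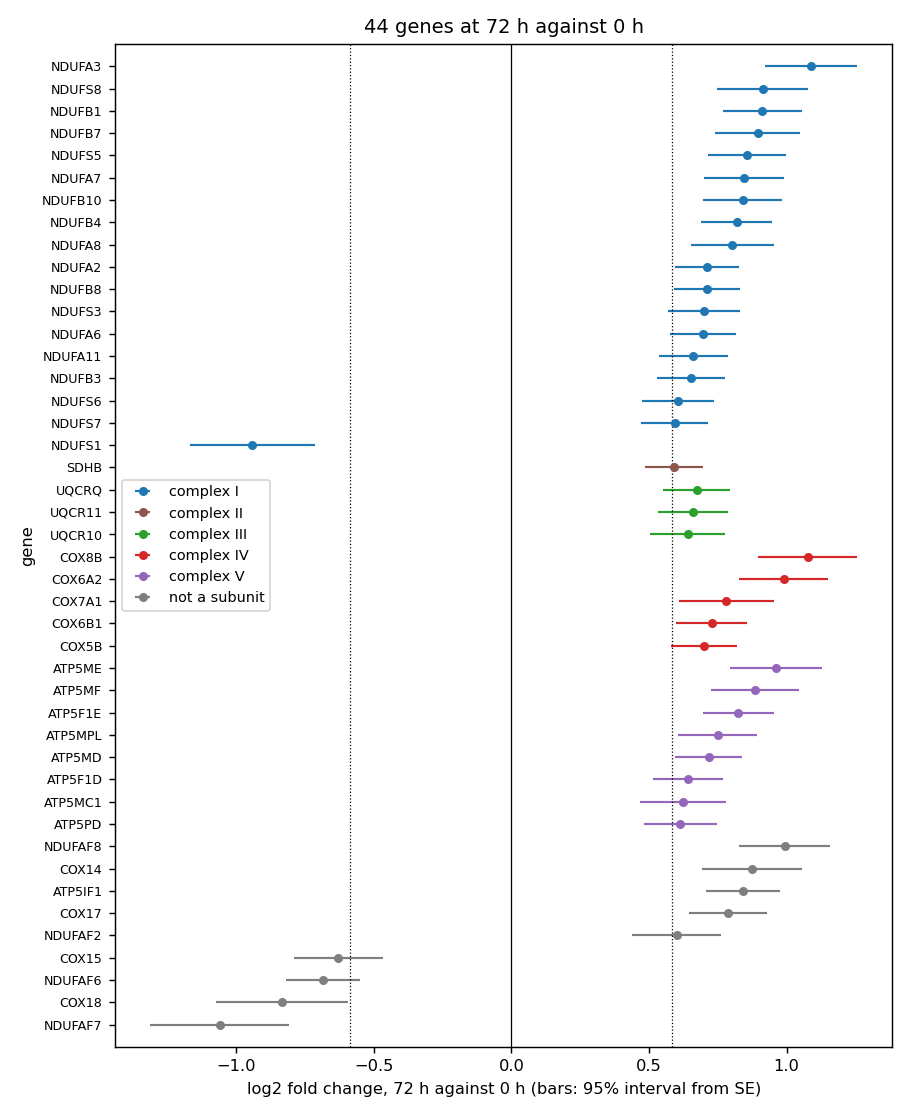
Log2 fold change at 72 h against 0 h (horizontal axis) of the 44 genes (vertical axis), coloured by complex and sorted within it; points are edgeR estimates, bars are 95% intervals from the SE, and dotted lines mark a fold change of 1.5. NDUFS1 at -0.94 stands apart from the other 17 complex I genes, and the 9 non-subunits fall on both sides of 0.

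Across the complexes, medians at 72 h were 0.80 in complex I without NDUFS1, 0.59 in complex II and 0.66 in complex III. They were 0.78 in complex IV and 0.73 in complex V. Without NDUFS1, the ranges of complexes I, IV and V overlapped. That of complex III, from 0.64 to 0.67, lay within the ranges of complexes I and V. No test between complexes was made at 72 h, since each list holds only genes already called there. Per animal, the median log2 difference between 72 h and 0 h over the 34 subunit genes was 0.55 in animal 202, 0.633 in 103, 0.662 in 101, 0.804 in 104, 0.809 in 107, 0.856 in 201 and 0.913 in 206. The mean over animals was 0.769 ± 0.152 (SD, n = 7) for complex I without NDUFS1, 0.593 ± 0.0939 for complex II, 0.66 ± 0.125 for complex III, 0.818 ± 0.162 for complex IV and 0.752 ± 0.142 for complex V. Within animals, the complex IV median exceeded that of complex III in 7 of 7, and complex II lay below complex I without NDUFS1, IV and V in 7 of 7, which is given as a description.

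As a share of all counts, the 34 subunit genes together made up 0.433 ± 0.0255% (SD, n = 7) at the start. The share was 0.466 ± 0.0358% after 6 h, 0.5 ± 0.0701% after 24 h, 0.557 ± 0.0838% after 48 h and 0.649 ± 0.0854% after 72 h. The lowest animal at 72 h (0.561%) was above the highest at 0 h (0.461%). The intermediate time points overlapped with their neighbours, and the spread between animals at 72 h was wider than at 0 h.

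The 34 subunit genes shared a time course, which is a description because the 0 h and 72 h samples enter it. In the estimates, all 34 rose at each of the 4 steps from 0 h to 72 h, whereas 13.8% of all genes tested did so. The 34 were chosen for being higher at 72 h, and the share among all genes called upregulated there was not counted. Single animals differed in the early steps. From 0 h to 6 h the median over the 34 genes fell in animal 206 (-0.121) and rose in the others. From 6 h to 24 h it fell in animals 101 (-0.205) and 107 (-0.105) and rose in the others, most in animal 206 (0.542). At 6 h the 34 genes had reached a median of 13.5% of their 72 h change (from 3.97% to 23.2%), at 24 h 24.4% (14% to 34.4%) and at 48 h 58.7% (49.6% to 65%). NDUFS1, moving down, had reached 24.8%, 26.7% and 60.5%. Medians of the log2 fold change against 0 h were 0.11, 0.19 and 0.44 at 6, 24 and 48 h. Genes called upregulated at 72 h anywhere in the genome had medians of 0.17, 0.22 and 0.46 at the same times, so the course of the subunit genes was close to that of upregulated genes in general.

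**Figure D3:**
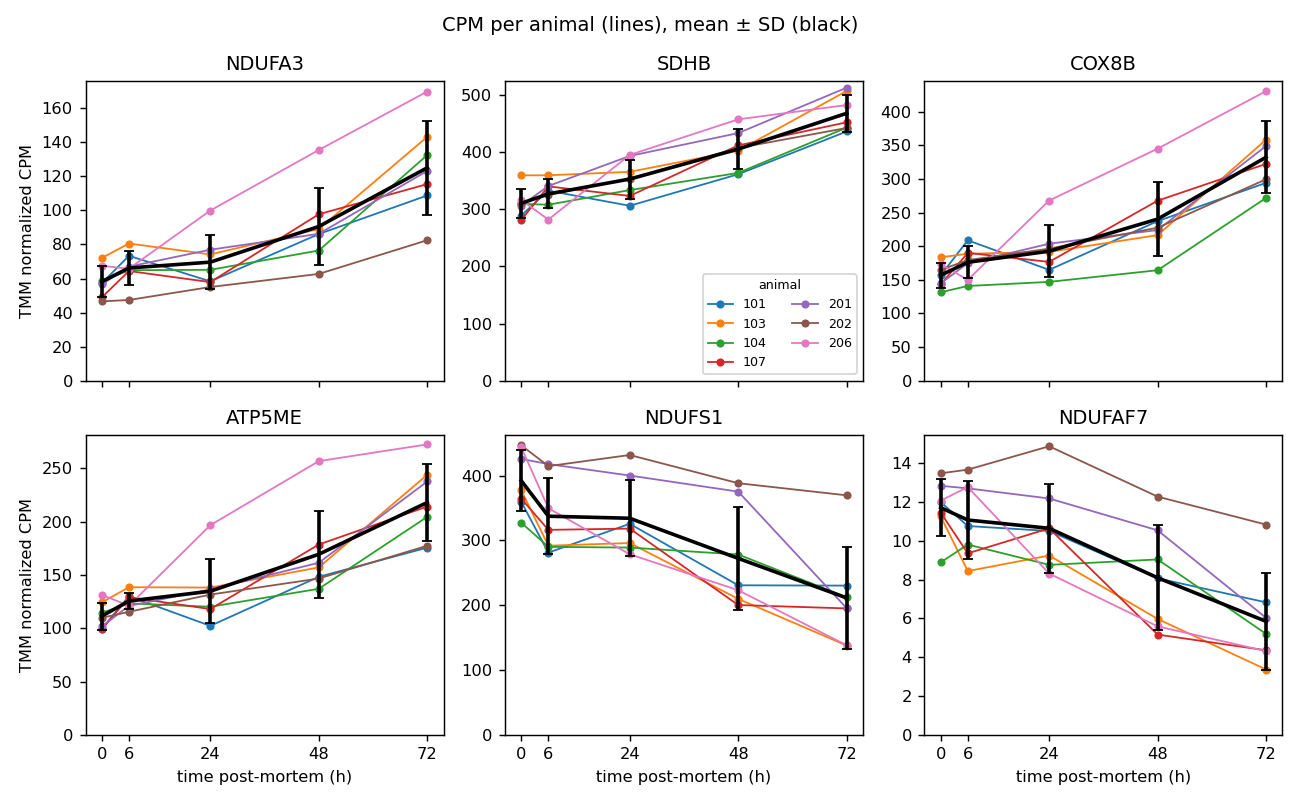
TMM normalized CPM (vertical axis, from 0) over time *post-mortem* in hours (horizontal axis) of 6 genes, with 1 coloured line per animal and the mean ± SD (n = 7) in black. NDUFA3, SDHB, COX8B and ATP5ME are higher in every animal at 72 h than at 0 h, while NDUFS1 and NDUFAF7 are lower, with animal 202 highest of the 7 at 72 h in both.

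The steps among 6, 24 and 48 h compare neither the 0 h nor the 72 h samples and were therefore tested. They are not independent of the choice of genes. They come from the same 7 carcasses and from 1 fit to all 35 libraries, which set dispersions, TMM factors and the animal block. The 6, 24 and 48 h samples also entered the choice through their contrasts against 0 h. Between 6 h and 48 h, 39 of the 44 genes rose and 4 fell at an FDR below 0.05, while 15.7% and 17.4% of all genes tested did. The 39 that rose were the same 39 called upregulated at 72 h, and of all 1434 genes called upregulated at 72 h 52.3% rose in this step, as 73.9% of the 2256 called downregulated fell. The 4 that fell were NDUFS1, NDUFAF6, NDUFAF7 and COX15, while COX18 did not pass (log2 -0.23, FDR 0.14). Of the 40 genes not called DE at 48 h, 35 rose and 4 fell. Changes were small, with a median of 0.34 over the 34 subunit genes (0.25 to 0.45), and 0 of the 44 also exceeded a fold change of 1.5, while 0.991% and 4.79% of all genes were called by both thresholds upwards and downwards.

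By complex, the median change from 6 h to 48 h was 0.36 in complex I without NDUFS1 (17 of 17 rose), 0.31 in complex II (1 of 1), 0.30 in complex III (3 of 3), 0.35 in complex IV (5 of 5) and 0.33 in complex V (8 of 8). The largest increases were in NDUFS8 (0.45 ± 0.084, FDR 0.00038), NDUFB1 (0.44, FDR 0.00021) and NDUFAF2 (0.43 ± 0.085, FDR 0.00061). NDUFA2 had the lowest FDR (0.37, FDR 0.00013). SDHB changed by 0.31 ± 0.054 (FDR 0.00027), COX8B by 0.42 ± 0.091 (FDR 0.0012), UQCRQ by 0.32 ± 0.062 (FDR 0.00056) and ATP5ME by 0.40 ± 0.085 (FDR 0.00098).

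Of the 39 genes that rose between 6 h and 48 h, 33 were higher in all 7 animals. The exceptions were ATP5MC1, higher in 5 of 7, and ATP5F1D, COX14, COX7A1, NDUFS6 and UQCR10, each higher in 6 of 7. In 10 genes the CPM ranges of 6 h and 48 h did not overlap, namely ATP5F1E, ATP5IF1, COX17, NDUFA2, NDUFA7, NDUFA11, NDUFB1, NDUFS8, SDHB and UQCR11, all higher, against 0.848% of all genes higher and 1.65% lower. Per animal, the median change of the 34 subunit genes was 0.111 in animal 101, 0.163 in 103, 0.199 in 104, 0.334 in 201, 0.344 in 202, 0.446 in 107 and 0.834 in 206. Every animal moved the same way, and animal 206 by far more than the rest. The count of 39 was unchanged when any 1 animal was left out, animal 206 included.

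**Figure D4:**
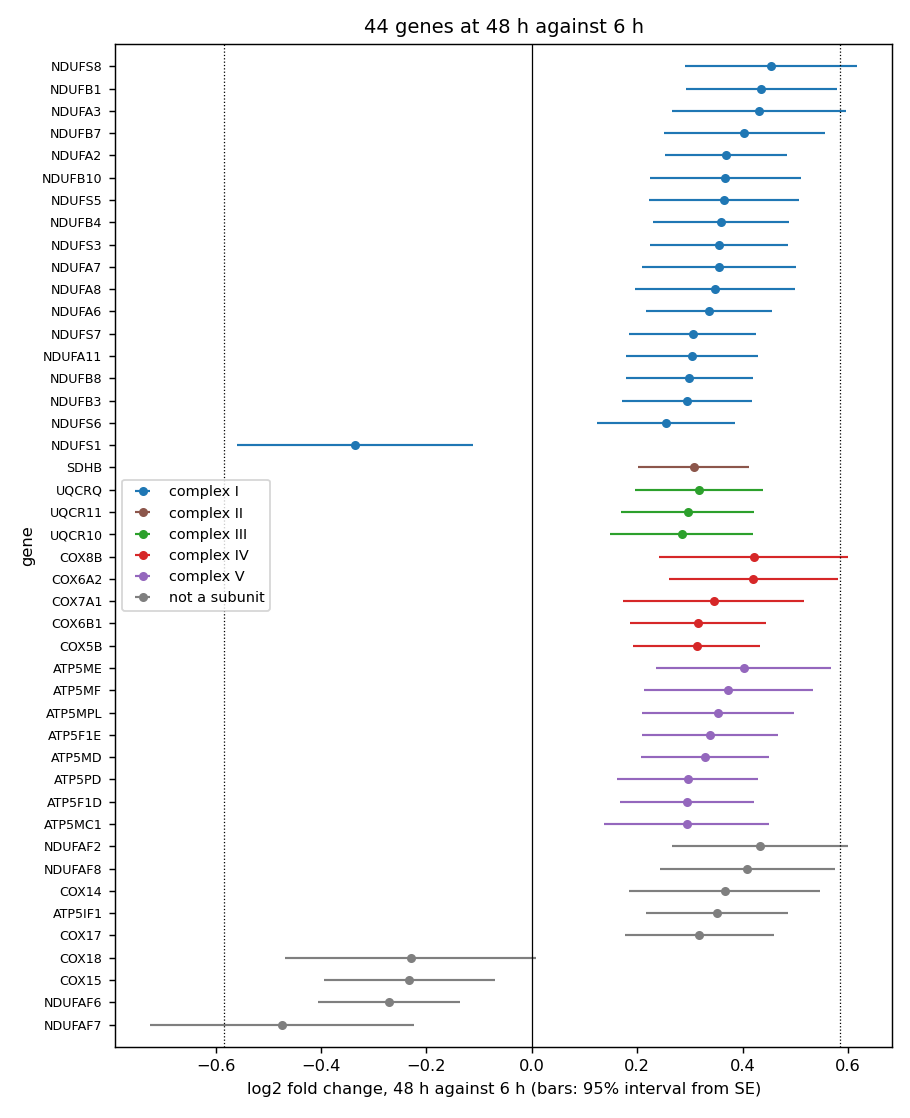
Log2 fold change at 48 h against 6 h (horizontal axis) of the 44 genes (vertical axis), coloured by complex; points are edgeR estimates, bars 95% intervals from the SE and dotted lines a fold change of 1.5. The 39 rising genes lie between 0.25 and 0.45, the 5 falling genes between -0.47 and -0.23, and the interval of COX18 reaches 0.

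Within this interval the calls came from the step after 24 h. Between 6 h and 24 h 0 of the 44 genes passed in edgeR's quasi-likelihood test in either direction, 0 had an unadjusted p below 0.05 (6.27% of all genes did), DESeq2 and limma voom gave 0 as well, and 0.0342% and 0.588% of all genes rose and fell. The median over the 34 subunit genes was 0.08. Per animal the median ran from -0.205 in animal 101 to 0.542 in animal 206, whose value from 24 h to 48 h was 0.305. This step and the one after 24 h were not tested against each other. Between 24 h and 48 h 37 rose and 3 (NDUFS1, NDUFAF7 and COX15) fell, against 9.56% and 9.84% of all genes and 39.5% of those called upregulated at 72 h. UQCR10 (FDR 0.079), ATP5MC1 (FDR 0.16), NDUFAF6 (FDR 0.063) and COX18 (FDR 0.26) did not pass. This last count rested on the animals included, being 9 without animal 107 and 22 without animal 101, and it was 10 when libraries were scaled by their totals alone and 0 without the animal block.

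From 48 h to 72 h, a step that shares the 72 h samples with the choice of genes, 39 rose and 4 fell, where 16.5% and 16.6% of all genes did, and without the animal block 20 rose and 1 fell. COX15 alone did not pass (log2 -0.20). The median over the 34 subunit genes was 0.30, compared with 0.26 for the step from 24 h to 48 h.

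NDUFS1 fell between 6 h and 48 h by 0.34 on the log2 scale (SE 0.11, FDR 0.025), and it was lower in 7 of 7 animals. The FDR rose to 0.0629 without animal 103, 0.118 without animal 107, 0.0649 without animal 206 and 0.264 without the animal block, so the call depended on which animals entered. To set NDUFS1 against its partners, the log2 ratio of NDUFS1 to each other named core gene was formed within each library, a comparison added after the data were seen. From 6 h to 48 h the ratio to NDUFS3 changed by -0.698 ± 0.424 (SD, n = 7), to NDUFS7 by -0.649 ± 0.397 and to NDUFS8 by -0.798 ± 0.501. Each was lower in 7 of 7 animals. These values are a description with no test, since NDUFS1 and its partners each moved in opposite directions already in their own fits.

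The smallest change among animals was -0.288, for NDUFS7, and the largest -1.74, for NDUFS8. At 0 h the mean log2 ratio was 1.4 to NDUFS3, 1.15 to NDUFS7 and 1.88 to NDUFS8. At 72 h it was -0.26, -0.402 and 0.0116. Counts were not divided by transcript length, so the ratios describe change over time and not which of these RNAs was more abundant.

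**Figure D5:**
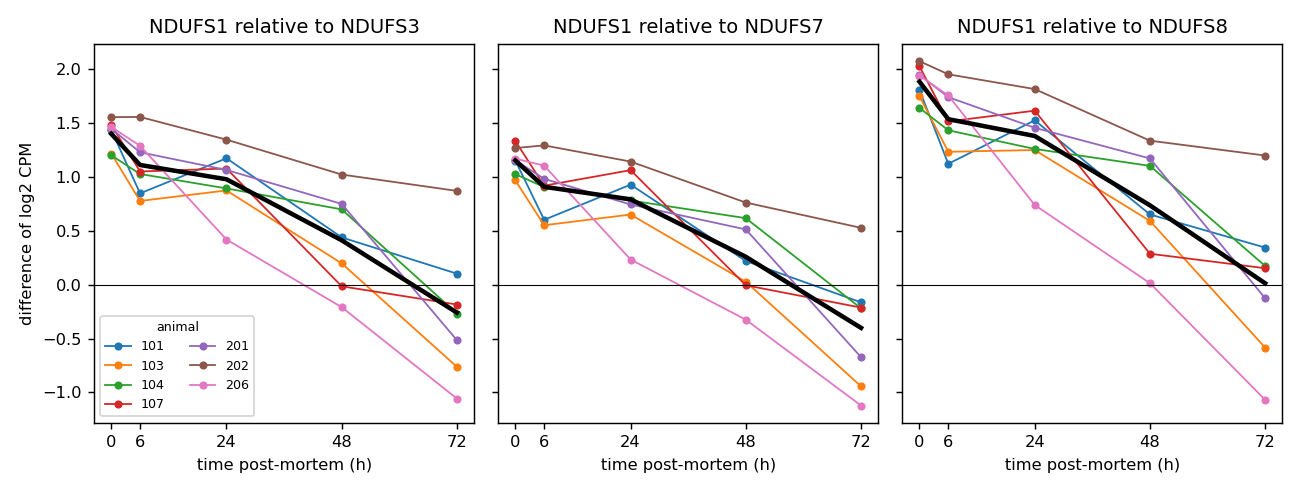
Difference of log2 CPM between NDUFS1 and NDUFS3, NDUFS7 or NDUFS8 in the same library (vertical axis) over time *post-mortem* in hours (horizontal axis), with 1 coloured line per animal and the mean of 7 in black. In the 3 panels every animal is lower at 48 h than at 6 h, and the mean falls from 1.4, 1.15 and 1.88 (0 h) to -0.26, -0.402 and 0.0116 (72 h).

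The 9 genes that are not subunits were split, with 5 upregulated and 4 downregulated at 72 h. ATP5IF1, which blocks ATP hydrolysis by ATP synthase at low pH, was at 0.84. COX17, the copper chaperone of complex IV, was at 0.79, and COX14, which takes part in the assembly of the first mitochondrially encoded subunit of complex IV, was at 0.87.

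NDUFAF8, a complex I assembly factor, had the largest increase of these. Its CPM ranged from 19 to 28 (median 24.2) at 0 h, 22.9 to 31.5 (median 26.6) at 6 h, 23.9 to 40.6 (median 26.3) at 24 h, 29.5 to 53.5 (median 35.4) at 48 h, and 35.7 to 64.2 (median 44.1) at 72 h. The 48 h and 72 h ranges were above that of 0 h, with log2 fold changes of 0.62 ± 0.085 at 48 h and 0.99 ± 0.085 at 72 h. NDUFAF2, which acts late in complex I assembly, had the smallest increase and the weakest separation. Its CPM ranged from 2.41 to 4.82 (median 2.94) at 0 h, 2.06 to 4.5 (median 2.76) at 6 h, 2.55 to 5.78 (median 2.86) at 24 h, 2.74 to 6.51 (median 3.78) at 48 h, and 2.89 to 9.05 (median 4.2) at 72 h. Animal 103 was highest at each of the 5 time points, and the ranges of 0 h and 72 h overlapped, although each of the 7 animals was higher at 72 h (log2 0.60 ± 0.082).

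NDUFAF7, a methyltransferase that modifies a complex I core subunit, fell most of all 44 genes. Its CPM ranged from 8.89 to 13.5 (median 12) at 0 h, 8.44 to 13.7 (median 10.8) at 6 h, 8.31 to 14.9 (median 10.5) at 24 h, 5.16 to 12.3 (median 8.07) at 48 h, and 3.36 to 10.8 (median 5.2) at 72 h. Animal 202 was highest at all 5 time points and alone made the 72 h range overlap that of 0 h. The log2 fold change at 72 h was -1.06 ± 0.13, and from 6 h to 48 h -0.47 ± 0.13 (FDR 0.0058, lower in 7 of 7 animals).

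NDUFAF6, another complex I assembly factor, had 36.1 to 45.5 CPM (median 44.8) at 0 h, 35.6 to 41.6 (median 39) at 6 h, 30.4 to 40.1 (median 38.7) at 24 h, 25.9 to 37.2 (median 31.8) at 48 h, and 22.5 to 34.7 (median 26.2) at 72 h. Here all animals at 72 h were below all at 0 h (log2 -0.68 ± 0.069), and the fall from 6 h to 48 h passed (-0.27 ± 0.069, FDR 0.0038). COX15, which makes haem A for complex IV, had 10.6 to 13.5 CPM (median 13.1) at 0 h, 9.47 to 12.4 (median 10.6) at 6 h, 8.62 to 13.9 (median 10.8) at 24 h, 7.61 to 11.2 (median 9.81) at 48 h, and 6.43 to 10.1 (median 8.48) at 72 h. Its ranges at 0 h and 72 h were likewise separate (log2 -0.63 ± 0.082). The fall of COX15 from 6 h to 48 h (-0.23 ± 0.083, FDR 0.032) was lost without animal 101 (0.103), 103 (0.0671), 107 (0.0536) or 206 (0.053).

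COX18, an insertase that places a mitochondrially encoded complex IV subunit in the membrane, was the gene with the fewest counts. It had 3.27 to 4.52 CPM (median 3.75) at 0 h, 3.27 to 4.2 (median 3.49) at 6 h, 2.99 to 3.9 (median 3.72) at 24 h, 2.59 to 3.71 (median 2.97) at 48 h, and 1.21 to 3.43 (median 2.05) at 72 h. It was lower at 72 h in 6 of 7 animals, animal 202 being the exception, with a log2 fold change of -0.83 ± 0.12.

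Counting separated ranges over the 44 genes, 38 had higher and 2 had lower CPM in every animal at 72 h than in any at 0 h, against 7.9% and 10.1% of all genes tested. The 2 were NDUFAF6 and COX15. NDUFS1, NDUFAF7, COX18 and NDUFAF2 were the 4 with overlapping ranges. At 48 h 22 genes were separated upwards and 0 downwards, with 3.11% and 3.34% of all genes being so.

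Neighbouring functions were counted from lists of the pathway, in which a gene could be named only if the study had listed it as DE. Of 48 assembly factors 13 were named, and 6 of these were called higher and 7 lower at 72 h (9.8% and 15.4% of all genes tested). Since naming required a DE listing, nothing is read from this count. Beyond those described, SURF1 (0.61) and PET100 (1.02), which serve complex IV, were higher, and LYRM7 (-1.13), NUBPL (-1.13) and PET117 (-0.91), which serve complexes III, I and IV, were lower. From 6 h to 48 h 6 of the 13 rose and 4 fell at an FDR below 0.05, where 15.7% and 17.4% of all genes did.

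Of 9 regulators and carriers 5 were named. SLIRP, an RNA-binding protein that stabilises mitochondrial mRNAs together with LRPPRC, was higher at 72 h (0.90), while LRPPRC itself was lower (-0.73). From 6 h to 48 h SLIRP rose by 0.36 (FDR 0.00068) and LRPPRC fell by 0.28 (FDR 0.0053). The named factors that act on transcription of mitochondrial or respiratory chain genes were lower at 72 h, namely TFAM (-1.50), the coactivator PPARGC1B (-1.56) and GABPA (-0.70). Each also fell from 6 h to 48 h, by 0.69 (FDR 0.0039), 0.91 (FDR 0.0083) and 0.28 (FDR 0.017), where 17.4% of all genes fell. PPARGC1A, NRF1 and ESRRA from the same list could not be named, so these values do not speak for such factors in general. Of 13 TCA cycle genes 2 were named, DLD (-0.99) and SUCLA2 (-0.67), both called lower at 72 h (15.4% of all genes tested).

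Of 13 mitochondrially encoded genes 8 were named, and against 0 h their course was another. They were called lower in 8, 7, 4 and 1 cases at 6, 24, 48 and 72 h, with median log2 fold changes of -0.89, -0.80, -0.52 and -0.18, while 0.185%, 0.95%, 6.3% and 15.4% of all genes were called lower. After 6 h their medians were near those of the 34 subunit genes. From 6 h to 48 h the medians were 0.37 and 0.34, and 6 of the 8 rose at an FDR below 0.05 (15.7% of all genes). The medians were 0.05 and 0.08 from 6 h to 24 h, and 0.31 and 0.30 from 48 h to 72 h.

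Marker genes moved in both directions between 0 h and 72 h. Each could be named only if the study had listed it as DE. The summed CPM of the 3 named muscle genes ranged from 25200 to 31200 at 0 h and from 39200 to 58300 at 72 h, without overlap. TNNI2 and TNNT3, the 2 of 7 fast fibre genes that were named, had a median sum of 17300 at 0 h and 32400 at 72 h (ranges 15600 to 19500 and 27300 to 46500), and the 4 of 7 named slow fibre genes 7120 and 9530 (5900 to 8770 and 5670 to 12900). Of these 4 slow fibre genes TNNI1 and TNNT1 were called higher at 72 h and ATP2A2 lower. The 5 of 5 adipocyte genes fell from a median sum of 169 to 6.27 (27 to 254 and 6.03 to 8.71), and the 4 of 5 T and NK cell genes stood at 5.41 and 11.1 (4.47 to 9.6 and 9.46 to 12.8). The 2 of 6 erythroid genes were at 0.217 and 0.406, PDGFRA as the 1 of 4 fibroblast genes at 53.8 and 30.5, and 0 of 3 endothelial genes were named. No named marker was at 0 in all libraries. Across the tested step, the muscle sum went from 28300 to 35700 (median 32700) at 6 h to 36700 to 43900 (median 39300) at 48 h, again without overlap, and CKM, MYLPF and TNNC2 rose by 0.28, 0.35 and 0.35 on the log2 scale, beside the 0.34 of the subunit genes. The fast fibre sum went from a median of 20100 to 27000 with both genes rising, and the slow fibre sum from 6640 to 8390 with 1 of 4, MYL3, rising. The adipocyte sum went from 102 to 7.29, the T and NK cell sum from 5.05 to 11, the erythroid sum from 0.476 to 5.02 and PDGFRA from 56.7 to 43.5. The part of these shifts in the results for the respiratory chain genes was not tested.

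Scaling set how many genes passed the fold change threshold. With library totals in place of TMM, the median of all genes at 72 h shifted to -0.16 and that of the 34 subunit genes to 0.55, and 19 of the 44 genes were called higher and 5 lower. The direction of the 34 subunit genes as a group was positive at each time point under both scalings.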

How the data were processed

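The authors trimmed reads with Trimmomatic 0.39, checked them with FastQC 0.11.8, mapped them with STAR 2.7.0f to ARS-UCD1.2 and counted them per gene with featureCounts 1.6.4 (versions from the submitters' processing notes). The deposited values are counts, whole numbers per gene and sample without normalisation or filtering. The methods describe strand specific counting but print the unstranded option. The library totals, from 20568418 to 104275821, match the range the paper gives for reads assigned to the sense strand. How reads over overlapping genes were counted was not checked. All 35 columns were used.

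The fit used edgeR 4.0.16 in R 4.3.3 with filterByExpr by time point, TMM factors (0.846 to 1.11) and animal as block, and was tested on simulated data. Log2 CPM had a prior count of 2. The animal number pairs the samples because its 5 samples come from 1 carcass. Deviations from time point means had a median correlation of 0.58 (lowest 0.29) over 70 same-animal pairs and -0.11 over 420 other pairs. Alternatives were RLE factors, library totals, DESeq2 1.42.0, limma 3.58.1, other filters, no block, only the time points compared, a test against the fold change, and each animal left out.

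Members and lists were chosen with earlier results of these data known. Members given in full were NDUFS1, those lower at 72 h, those called by 48 h, the largest and smallest increase per group, and the muscle isoforms. Symbols came from a shortened copy of the study's DE list (3640 identifiers, 3106 with a symbol) that lacks some genes downregulated at 72 h. Subunits not on it, gene lengths, promoters and proteins were not analysed here. All 44 symbols matched RefSeq names on ARS-UCD2.0, used for names and neighbours alone (ATP5MD is ATP5MK and ATP5MPL is ATP5MJ there).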

Additional observations from a re-analysis of the deposited data

Results flagged for a closer look

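In 15 of the 220 sets of 7 animals (44 genes at 5 time points) the highest or lowest animal stood apart from the rest by Dixon's criterion, where chance would flag about 11, or 1 in 20. Of these, 9 were a high value in animal 206, 6 of them at 48 h. At 48 h animal 206 had 257 CPM of ATP5ME (next 179), 218 of ATP5MF (155), 106 of NDUFA7 (83.8), 72.1 of NDUFB1 (56.8), 177 of NDUFB7 (125) and 209 of UQCR11 (159). The same animal was high in ATP5MF at 24 h with 175 CPM (next 130), in NDUFB8 at 72 h with 331 (274) and in UQCR11 at 72 h with 245 (193).

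The remaining 6 involved other animals or a low value. Animal 206 was low in COX17 at 6 h with 130 CPM (next 163), and animal 107 was high in COX17 at 48 h with 247 (217). Animal 107 was low in ATP5F1D at 0 h with 246 CPM (next 284) and at 72 h with 394 (448). Animal 202 was low in NDUFA3 at 6 h with 47.4 CPM (next 64.4), and animal 103 was high in NDUFAF2 at 24 h with 5.78 (3.15).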

How the results depend on the processing

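No member's log2 fold change at 72 h or from 6 h to 48 h changed sign under any alternative. Nor did the median of the 34 subunit genes in any contrast, or the ratio changes of NDUFS1. Counts were compared by size alone, and some of them shifted. Scaled by library totals alone, 0 genes were called higher and 2 lower at 48 h, 19 were called higher at 72 h, and 10 rose from 24 h to 48 h. Without a low count filter 2 were called higher and 1 lower at 48 h. Tested against a fold change of 1.5 (glmTreat), 0 were called higher at 48 h and 23 higher and 2 lower at 72 h, and in the steps from 24 h to 48 h, 6 h to 48 h and 48 h to 72 h 0 rose and 0 fell, as no member exceeded that fold in a step. Without the replicate block, which pairs the samples of an animal, 0 rose and 0 fell from 24 h to 48 h, 1 fell from 6 h to 48 h (31 rose), and 20 rose and 1 fell from 48 h to 72 h. Leaving out each animal gave 0 to 7 called higher at 48 h (0 without 107 or 206, and 7 without 104), 0 to 2 lower, 34 to 39 higher and 4 to 5 lower at 72 h, 9 to 38 rising and 0 to 4 falling from 24 h to 48 h, 2 to 4 falling from 6 h to 48 h, 37 to 39 rising and 3 to 5 falling from 48 h to 72 h, and 39 rising from 6 h to 48 h each time. The ratio changes of NDUFS1 ranged from -0.76 to -0.57 (NDUFS3), -0.71 to -0.52 (NDUFS7) and -0.88 to -0.64 (NDUFS8). RLE factors, DESeq2, limma voom, the 1 CPM filter and fits of 2 time points gave counts within 1.5 times of those reported. The cause of these shifts was not tested. For single genes at 72 h or from 6 h to 48 h a call was lost in 120 combinations of gene and setting, 62 of them with glmTreat, and gained in 1. Not run for lack of gene lengths and a table of symbols were the length correction, the subunits outside the list, the isoform pairs and the promoter motifs. Depth limits COX18, which had as few as 29 counts in a library.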
